A study of Bombyx mori with 9 samples.

Results

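The silkworm (Bombyx mori) strain MO204 was compared with the strain DMMMSU119, with 3 larvae of each, all reared at TCMO (Misamis Oriental), the hotter of the study's rearing sites, at an ambient temperature of 31.7 °C. The comparison takes 6 of the 9 libraries of the series, chosen by strain and site and not by any measured value. The rearing facility classed MO204 as a priority strain and DMMMSU119 as a poorly performing one, by hatching, survival and pupation and not by silk yield. Whole silk glands were taken from larvae on day 3 of their last larval instar, with a single animal behind each library. The remaining 3 libraries, of the strain LAT51 from the cooler site CAR, entered the gene filter, the scaling and the estimate of spread, but not the contrast. Their values are quoted for some genes. The labels name no treatment, give the same age and site for both strains, and do not state the sex of the larvae, so strain is the only labelled difference. With 1 larva per library, p-values measure the spread between larvae of the same strain, estimated over all 3 strains and so over both sites. They do not cover repeat collections of a strain.

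The silk gland is a paired tube that makes the silk of the cocoon. Its posterior part secretes the fibroin core (heavy chain, light chain and P25), and its middle part secretes the sericins that glue the fibres. By the fifth instar its cells no longer divide, but they go on copying their DNA and become highly polyploid, while protein synthesis is turned over to silk. Genes for silk, ribosomes, protein folding and DNA synthesis are the ones described most closely here. The grouping of DNA synthesis genes was made after their values were seen. Juvenile hormone and ecdysone, the hormones that time moults and metamorphosis, act on the gland as on other larval tissues.

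Reads counted on genes numbered 4625580 to 9218471 per library in MO204 and 6062945 to 9646046 in DMMMSU119. In the libraries that the study aligned with a separate tool, DMMMSU119 had a larger share of reads mapped to several loci than MO204. Whether this bears on the counts compared here was not tested. Expression is given as CPM, edgeR's counts relative to library size, after scaling with TMM, its adjustment for libraries of different make-up. Pearson's r between log2 CPM values across genes was 0.901 to 0.958 within MO204, 0.851 to 0.91 within DMMMSU119 and 0.714 to 0.809 between the strains. FIBH, Fib-l and sericin genes, which define the tissue, were among the 10 most counted genes in all 6 libraries. Fat body and muscle are tissues that lie next to the gland, and their marker genes were present to unequal degrees. The 11 fat body markers summed to 110.0, 831 and 1080.1 CPM in the MO204 libraries, against 99316, 28714 and 3917 CPM in the DMMMSU119 libraries, in the order MO204-1, -3 and -4 and DMMMSU-0, -2 and -4, which is kept below. The muscle markers summed to 38.7, 888 and 54.4 CPM in MO204 and 14528, 35 and 25.6 CPM in DMMMSU119. DMMMSU-0 was thus the library with the most counts of both kinds. In whole glands, fewer cells of a type and less RNA per cell cannot be told apart.

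**Figure D1:**
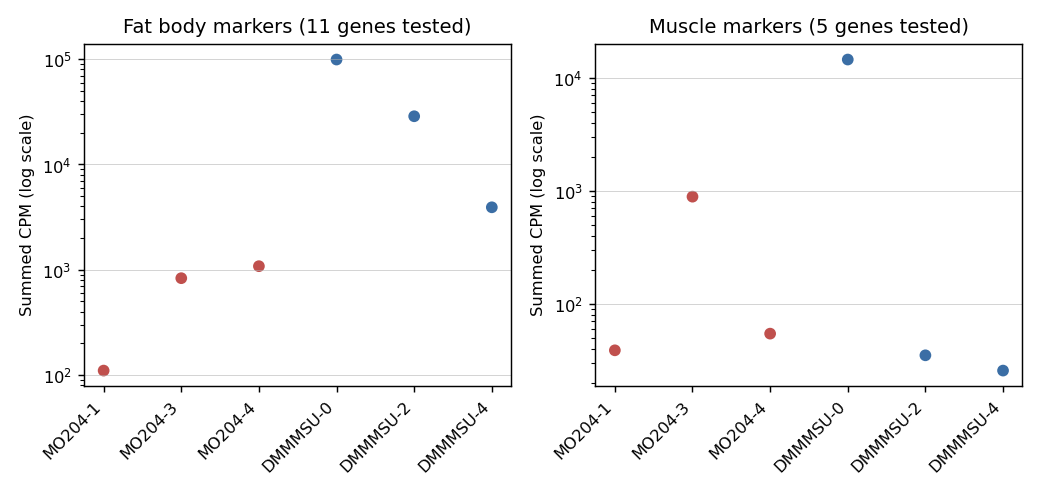
Summed TMM-normalised CPM (log axis) of the fat body markers (left) and the muscle markers (right) in each MO204 library (red) and each DMMMSU119 library (blue). All DMMMSU119 libraries lie above all MO204 libraries in the fat body panel, while in the muscle panel only DMMMSU-0 and, to a lesser degree, MO204-3 stand apart.

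Of 7610 genes tested, 2513 were differentially expressed genes (DEGs) at an adjusted p under 0.1 in edgeR's quasi-likelihood test, which is 33.0% of the genes. 1240 were higher in MO204 (16.3%) and 1273 were lower (16.7%). The lower genes had the larger changes: 200 of them differed by more than 16-fold, against 21 of the higher ones. Under TMM scaling they were also the more abundant. Of the 100 most counted genes, 87 were lower in MO204 and 0 were higher, with a median log2FC (MO204 over DMMMSU119) of -1.55. That count depends on the scaling described below, since with library size alone 378 genes in all were lower DEGs. Every MO204 library lay above every DMMMSU119 library in 22.8% of the genes, and below every one in 18.9%. The number of DEGs varied with single larvae, and was 1257 without MO204-1, 1645 without MO204-3 and 1518 without DMMMSU-2. The higher genes alone numbered 781 without DMMMSU-4. With each of the 6 libraries left out in turn, 1013 genes remained DEGs in the same direction throughout (447 higher and 566 lower). Without DMMMSU-0 and DMMMSU-2, the libraries with the most fat body counts, 1046 genes were called, 507 higher and 539 lower.

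Which genes were called lower depended on the scaling, and counts were more concentrated in DMMMSU119. The 500 most counted genes of each library took 80.5, 82.7 and 82.3% of the counts in MO204, against 91, 94.7 and 93.1% in DMMMSU119. The 10 most counted genes took 28.9, 31.5 and 28.6% in MO204 and 34.5, 44.1 and 43.8% in DMMMSU119, groups that did not overlap (two-sided exact permutation test, p = 0.1, the smallest p that 3 against 3 allows). The TMM factors lay between 1.33 and 1.53 in MO204 and between 0.421 and 0.591 in DMMMSU119, and set the median log2FC of all genes at 0.03. With library size alone the median was 1.43, and 5181 of 5559 DEGs were higher in MO204. All changes below are relative to the median gene. All 1240 genes called higher were called higher on both scales, whereas 378 of the 1273 lower ones stayed lower DEGs with library size alone and 422 changed sign. Since library size alone moves log2FC upward as a whole, it does not test the higher calls.

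Of the 6 silk protein genes, 5 were lower in MO204 and Ser2 did not pass the test. FIBH, the fibroin heavy chain, had 44770.4, 86172 and 63764 CPM in MO204, against 278791, 612061 and 434533 CPM in DMMMSU119, and was 6.81-fold lower in MO204 (log2FC -2.77, SE 0.37, edgeR adjusted p = 0.00285). As a plain share of all counts FIBH took 6.82, 11.5 and 8.39% of each MO204 library and 16.4, 25.8 and 24.9% of each DMMMSU119 library. Every MO204 value was below every DMMMSU119 value on both measures. Its partners were lower in CPM too, with the light chain Fib-l at 14931, 18413 and 14017 CPM in MO204 and 40082, 81002 and 68440.3 CPM in DMMMSU119 (log2FC -2.0, SE 0.32, edgeR adjusted p = 0.00587). As a plain share, however, Fib-l overlapped, at 2.27, 2.45 and 1.84% in MO204 and 2.36, 3.41 and 3.92% in DMMMSU119 (two-sided exact permutation p = 0.2). P25, the glycoprotein of the fibroin core, had 1727, 2592 and 1213 CPM in MO204 and 8778, 10949.8 and 9958 CPM in DMMMSU119 (log2FC -2.42, SE 0.35, edgeR adjusted p = 0.00402). All 3 fibroin genes stayed lower DEGs with library size alone and with any single library left out.

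The sericins did not move together. Ser3, one of the sericins of the cocoon, was at 41.2, 82.6 and 14.7 CPM in MO204, against 7711, 30428 and 18909.8 CPM in DMMMSU119. That is a log2FC of -8.69 (SE 1.06, edgeR adjusted p = 0.00253), a 412-fold difference, and the LAT51 mean of 4.92 CPM was on the side of MO204. Ser1 (LOC101740082), the main cocoon sericin, had 8336, 7760.4 and 22569.7 CPM in MO204 and 47290.0, 86037 and 38262 CPM in DMMMSU119 (log2FC -2.15, SE 0.69, edgeR adjusted p = 0.0519), but this call was lost without MO204-1, MO204-3 or DMMMSU-2, where its adjusted p reached 0.168. Ser1 was not a DEG with library size alone either (log2FC -0.69, edgeR adjusted p = 0.307), and its plain shares of counts overlapped between the strains. Ser2, whose product coats the silk that larvae spin before the cocoon, overlapped between the strains at 25137, 32627 and 42649 CPM in MO204 and 32488, 33971 and 21173 CPM in DMMMSU119 (log2FC 0.20, SE 0.34, edgeR adjusted p = 0.697). On the scale of library size alone Ser2 was higher in MO204 by 1.6 on the log2 scale, with shares of 3.83, 4.34 and 5.61% of counts in MO204 and 1.91, 1.43 and 1.21% in DMMMSU119. In all, 5 of 6 silk protein genes were lower and 0 higher, against 16.7% and 16.3% of all genes. With library size alone 4 were lower and 1 higher. Together the 6 genes took 14.5, 19.6 and 19% of counts in MO204 and 24.4, 36 and 33.9% in DMMMSU119 (exact permutation p = 0.1, two-sided, the smallest that can be reached).

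**Figure D2:**
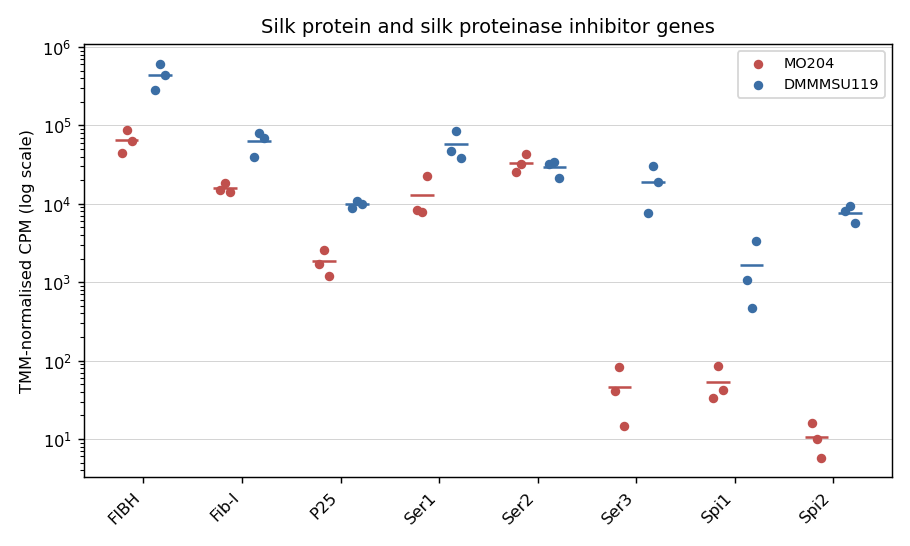
TMM-normalised CPM (log axis) of 6 silk protein genes and of the silk proteinase inhibitors Spi1 and Spi2, with a point for each library and a bar at the mean of MO204 (red, left) and DMMMSU119 (blue, right). The strains overlap only at Ser2, and the gap is widest at Ser3 and Spi2.

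Among 4 small protease inhibitor genes looked up after values were seen, 3 were lower in MO204 and 1 did not pass, beside 16.7% lower over all genes. Spi2 and Spi1 are the silk proteinase inhibitors, found in the cocoon. Spi2 had 16.2, 10.1 and 5.80 CPM in MO204 and 8017, 9246 and 5699.5 CPM in DMMMSU119, with a log2FC of -9.48 (SE 1.27, edgeR adjusted p = 0.00286). Spi1 had 33.5, 85 and 42.1 CPM in MO204 and 1062, 470.3 and 3390.1 CPM in DMMMSU119, a log2FC of -4.94 (SE 0.81, edgeR adjusted p = 0.00647). In both genes the strains were far apart, although Spi1 varied several-fold among the DMMMSU119 larvae. The cysteine proteinase inhibitor bcpi had 52.2, 65 and 71.7 CPM in MO204 and 387, 473 and 369.8 CPM in DMMMSU119 (log2FC -2.70, SE 0.31, edgeR adjusted p = 0.00147). Psat1, phosphoserine aminotransferase of the pathway that makes serine, had 96.5, 152 and 133 CPM in MO204 and 779.6, 1002 and 864 CPM in DMMMSU119 (log2FC -2.79, SE 0.32, edgeR adjusted p = 0.00148). These calls held on both scales and with each library left out.

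Of 7 transcription factors listed for the gland, 3 had enough counts to be tested, and 2 of them were lower, beside 16.7% of all genes. The bHLH factor sage had 41.7, 46.3 and 37.3 CPM in MO204 and 71.7, 94.1 and 73.9 CPM in DMMMSU119 (log2FC -0.94, SE 0.24, edgeR adjusted p = 0.0272). A second bHLH factor, dimm, had 3.20, 4.88 and 4.27 CPM in MO204 and 5.04, 18.7 and 23.4 CPM in DMMMSU119 (log2FC -1.95, edgeR adjusted p = 0.0466). SGF1, the forkhead factor of the gland, overlapped at 1.71, 1.79 and 1.31 CPM in MO204 and 1.4, 3.70 and 4.06 CPM in DMMMSU119 (edgeR adjusted p = 0.366). The log2FC of sage was 0.49 with library size alone, where it was no longer a DEG. The call of sage was also lost without MO204-1 (adjusted p = 0.102), and that of dimm without MO204-1, MO204-3, DMMMSU-2 or DMMMSU-4 (adjusted p up to 0.156).

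Among the heat shock proteins, the chaperones that keep other proteins folded, the small Hsp20.8 and Hsp20.4 had the largest changes, while Hsp20.1, Hsp21.4 and Hsp19.9, also small, did not pass. Hsp20.8 had 3.84, 2.76 and 3.50 CPM in MO204, against 942, 1151 and 631 CPM in DMMMSU119, a 267-fold difference (log2FC -8.06, SE 0.42, edgeR adjusted p = 1.7e-05). Its adjusted p was the smallest of all genes, together with that of LOC119630891 (log2FC -8.02). That locus had 51, 17 and 30 counts in MO204 and 2976, 4432 and 3269 counts in DMMMSU119, against 54, 17 and 32 and 3361, 4671 and 3421 for Hsp20.8, so near-identical copies may share these reads and the levels of the single genes are uncertain. Hsp20.4 had 0.427, 0 and 1.53 CPM in MO204 and 251, 339 and 172 CPM in DMMMSU119 (log2FC -8.52, SE 0.84, edgeR adjusted p = 0.00123). Both genes were also near zero in LAT51, with means of 3.95 CPM and 0.189 CPM. Hsp23.7 was lower in MO204 too, at 4.77, 4.72 and 15.3 CPM, against 38.4, 55.7 and 27.5 CPM in DMMMSU119 (log2FC -2.29, edgeR adjusted p = 0.0148). The most abundant member was Hsc70-4, the constitutive cytosolic Hsp70, with 2141, 2935 and 2672 CPM in MO204 and 10379, 31035 and 13836 CPM in DMMMSU119 (log2FC -2.83, SE 0.45, edgeR adjusted p = 0.00549).

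Heat shock genes as a class did not share a direction. Of 12 tested, 4 were lower, 2 were higher and 6 did not pass, with a median log2FC of -1.78 beside 0.03 for all genes. Over all genes 16.7% were lower and 16.3% higher. With library size alone, 3 heat shock genes were lower and 4 higher. The inducible Hsp70 genes overlapped between strains at MO204-4. LOC733093 (BmHsp70) had 0.285, 0.650 and 24 CPM in MO204 and 37.6, 129 and 19 CPM in DMMMSU119 (edgeR adjusted p = 0.137), and Hsp70 had 0, 0.325 and 5.25 CPM in MO204 and 6.17, 20.45 and 4.06 CPM in DMMMSU119 (edgeR adjusted p = 0.179). Hsp19.9 showed the same pattern, at 8.33, 6.02 and 119 CPM in MO204 and 74.5, 142 and 107 CPM in DMMMSU119 (edgeR adjusted p = 0.332). MO204-4 had more of these transcripts than the other MO204 larvae, and without that larva the 3 genes had adjusted p-values of 0.0108, 0.0207 and 0.00455 and were lower in MO204. Hsp20.1 (log2FC -0.90), Hsp21.4 (log2FC -0.45) and Hsp90 (log2FC 0.82) did not pass, with edgeR adjusted p of 0.127, 0.332 and 0.105.

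Chaperones of the secretory pathway ran the other way, with 3 of 4 listed genes of folding and export higher and 0 lower (median log2FC 0.78). Over all genes 16.3% were higher and 16.7% lower. HSP70, counted above among the heat shock genes and picked after its values were seen, has the synonym grp78, the Hsp70 of the endoplasmic reticulum (ER). It had 757, 626 and 1059 CPM in MO204 and 439, 384 and 379.7 CPM in DMMMSU119 (log2FC 1.02, SE 0.33, edgeR adjusted p = 0.0542). Calreticulin (Crt) had 1287, 1131 and 2024 CPM in MO204 and 944, 503.8 and 585 CPM in DMMMSU119 (log2FC 1.13, SE 0.37, edgeR adjusted p = 0.0529). The disulfide isomerase Pdi had 2079, 2634 and 1529.7 CPM in MO204 and 1296, 788 and 1168 CPM in DMMMSU119 (log2FC 0.94, SE 0.34, edgeR adjusted p = 0.0754). Groups did not overlap for these genes, nor for the translocon subunit Sec61alpha (log2FC 0.62, edgeR adjusted p = 0.0991) and ERp57 (log2FC 0.53, edgeR adjusted p = 0.217). These changes lay near the threshold. HSP70, Crt, Pdi and Sec61alpha each lost the call without MO204-1, DMMMSU-2 or DMMMSU-4, with adjusted p up to 0.136, 0.149, 0.212 and 0.199. HSP70 and Crt also lost it without MO204-4, Pdi without MO204-3 and Sec61alpha without either.

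Among the DnaJ co-chaperones, which hand substrates to Hsp70s, 5 of 23 were higher and 2 lower, with a median log2FC of 0.48, beside 16.3% higher and 16.7% lower over all genes. DnaJ-8 had 45.6, 49.8 and 41.3 CPM in MO204 and 28.6, 8.87 and 17 CPM in DMMMSU119 (log2FC 1.33, edgeR adjusted p = 0.0369). DnaJ-23 (LOC101746621) was higher by a log2FC of 1.23 and DnaJ-17 by 1.5, while DnaJ-5 was lower by a log2FC of -0.87 (edgeR adjusted p = 0.0238, 0.0374 and 0.0399). DnaJ-17 lost its call without MO204-1 (adjusted p = 0.137), and DnaJ-5 with any 1 of the MO204 libraries left out (up to 0.115). DnaJ-5 turned positive with library size alone, at 0.55, and the number of members called higher was 2 without MO204-1 and 3 without DMMMSU-2 or without DMMMSU-4. Hsp70-14, a further Hsp70 relative picked after its values were seen, was higher in MO204 at 64.9, 49.3 and 52.7 CPM, against 39.5, 12.6 and 19.4 CPM in DMMMSU119 (log2FC 1.23, edgeR adjusted p = 0.0585), a call lost without MO204-1, MO204-3, DMMMSU-2 or DMMMSU-4 (adjusted p up to 0.162).

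Relative to the median gene, most cytosolic ribosomal protein genes were lower in MO204, with 76 of 79 called lower and a median log2FC of -1.44. Over all genes 16.7% were called lower. RpLP2, a protein of the ribosomal stalk, had 2265, 3566 and 2973 CPM in MO204 and 9808, 22133 and 12723 CPM in DMMMSU119 (log2FC -2.34, SE 0.37, edgeR adjusted p = 0.00535). The log2FC was -1.96 for RpL7A, -1.87 for RpS16, -1.98 for RpS27a and -1.86 for RpL5, the most abundant of them, with edgeR adjusted p between 0.00731 (RpL7A) and 0.0122 (RpL5). Every MO204 library was below every DMMMSU119 library for all 76 lower members, beside 18.9% of all genes. This direction depended on the scaling. With library size alone the median was -0.00114 and 3 members were lower. As a plain share, the list took 20.9, 25.5 and 23.6% of counts in MO204 and 23.1, 26.6 and 23.3% in DMMMSU119, which overlapped (exact permutation p = 0.7, two-sided). The 3 members called higher, RpL7Ae, RpL20 and LOC100101172 (RpL24), named after their values were seen, were far less abundant, at mean values of 283, 52.6 and 1.85 CPM in MO204. RpL7Ae and RpL20 lost the call without MO204-1, DMMMSU-2 or DMMMSU-4, and RpL7Ae also without MO204-3 (adjusted p up to 0.128 and 0.133). The count of lower members was 52 without MO204-1 and 23 without DMMMSU-0 and DMMMSU-2.

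Translation factors followed the ribosome in part, with 9 of 17 lower, 1 higher and a median log2FC of -0.80. The shares over all genes were 16.7% lower and 16.3% higher. EF1a, which brings aminoacyl-tRNA to the ribosome, had 5351, 7379.9 and 6958 CPM in MO204 and 17366, 36064 and 22343 CPM in DMMMSU119 (log2FC -1.94, SE 0.34, edgeR adjusted p = 0.00752). The initiation factors Eif-4a (log2FC -1.31), eIF3e (LOC692936, log2FC -1.21) and eIF3i (log2FC -1.20) were lower as well, with edgeR adjusted p of 0.0193, 0.0239 and 0.0248. Eif2g was the higher one (log2FC 0.94, edgeR adjusted p = 0.078, up to 0.202 with a library left out). The median turned to 0.62 with library size alone, and Eif-4a, eIF3e and eIF3i turned positive. Without MO204-1, 5 members were lower.

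Mitochondrial ribosomal proteins, which build the separate ribosomes of that organelle, were mostly on the other side. Of 10 tested, 6 were higher and 1 lower, with a median log2FC of 1.04 and 2.39 with library size alone. The shares over all genes were 16.3% higher and 16.7% lower. mRpS12 had 34.4, 34.3 and 21 CPM in MO204 and 11.8, 4.93 and 8.29 CPM in DMMMSU119 (log2FC 1.85, SE 0.35, edgeR adjusted p = 0.0105). mRpL32 had 122, 104 and 81.4 CPM in MO204 and 52.4, 9.85 and 23 CPM in DMMMSU119 (log2FC 1.85, edgeR adjusted p = 0.0332). mRpL12 and mRpS21 were higher by log2FC 1.41 and 1.22 (edgeR adjusted p = 0.0357 and 0.0369), and mRpS5, the most abundant member, did not pass (log2FC 0.53, edgeR adjusted p = 0.221). Separation was clear for mRpS12 and narrower for mRpL32, where DMMMSU-0 came closest to MO204. The lower member was mRpS18C (log2FC -1.52, edgeR adjusted p = 0.0727), whose groups overlapped. Tim10, a small chaperone of mitochondrial protein import, had 51.2, 43.7 and 34.6 CPM in MO204 and 9.53, 3.70 and 8.66 CPM in DMMMSU119 (log2FC 2.56, SE 0.49, edgeR adjusted p = 0.0105). The calls rested on single larvae, with 1 of them higher without MO204-1 and 3 without DMMMSU-2 or without DMMMSU-4, and 9 without DMMMSU-0.

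**Figure D3:**
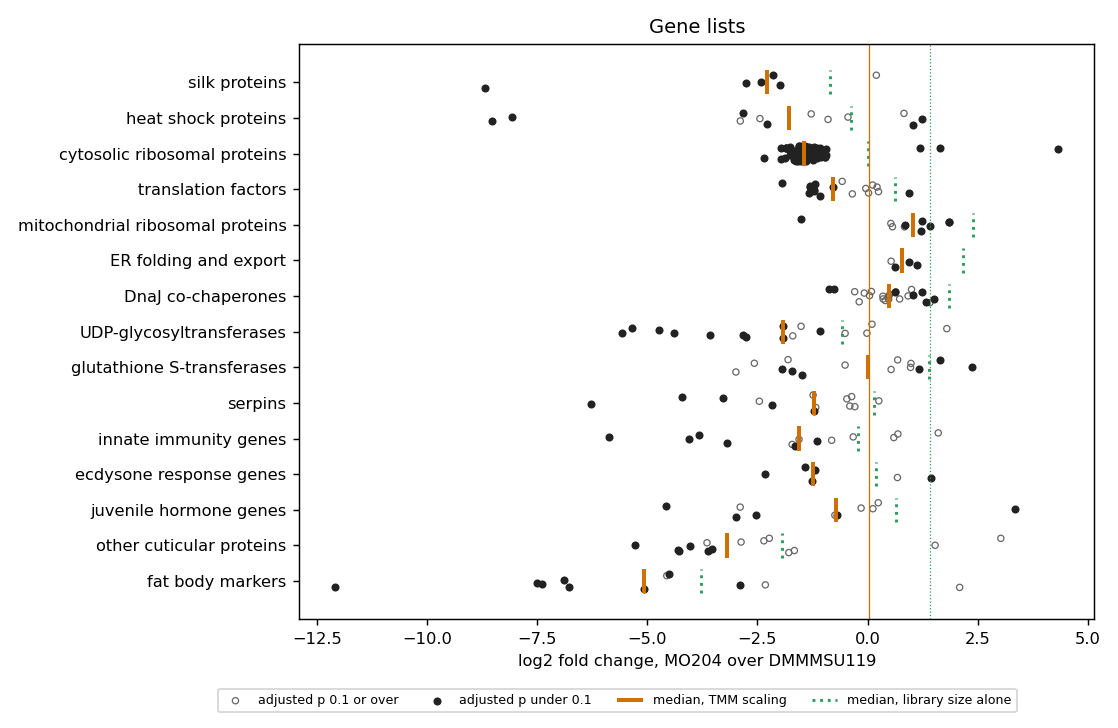
Log2 fold changes (MO204 over DMMMSU119, TMM scaling) of the tested members of 15 gene lists. Filled points passed the threshold and open points did not, thick orange bars mark each list's median, dotted green bars the median with library size alone, and thin vertical lines the medians of all genes (0.03 and 1.43). Cytosolic ribosomal proteins form a tight cluster at a median of -1.44, while silk, heat shock and fat body genes spread over a wide range.

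Several of the genes higher in MO204 have a role in DNA synthesis, a grouping made after their values were seen. RnrS, the small subunit of ribonucleotide reductase, had 44.6, 31.2 and 49.5 CPM in MO204, against 10.1, 6.16 and 7.37 CPM in DMMMSU119 (log2FC 2.41, SE 0.34, edgeR adjusted p = 0.00327). Tyms, thymidylate synthase, which makes the thymidine nucleotide of DNA, had 18.6, 16.6 and 9.09 CPM in MO204 and 3.36, 1.72 and 2.40 CPM in DMMMSU119 (log2FC 2.57, SE 0.39, edgeR adjusted p = 0.00453). Rpa1, the large subunit of the protein that coats single-stranded DNA, had 56.7, 45.7 and 45 CPM in MO204 and 19.897, 5.91 and 10.5 CPM in DMMMSU119 (log2FC 2.03, SE 0.40, edgeR adjusted p = 0.0117). The strains did not overlap at these 3 genes, as the rule that chose them required. The other subunits, looked up after Rpa1 was found, were higher too, with log2FC 2.03 for Rpa2 and 1.36 for Rpa3 (edgeR adjusted p = 0.0118 and 0.0265). Of the 4 genes listed for DNA replication, Pcna, the sliding clamp of DNA polymerase, was called, with 93.6, 77.6 and 104 CPM in MO204 and 40.4, 14.8 and 14.4 CPM in DMMMSU119 (log2FC 1.99, SE 0.41, edgeR adjusted p = 0.0133). The origin and helicase subunits ORC1 (log2FC 1.07, edgeR adjusted p = 0.132) and Mcm7 (log2FC 0.56, edgeR adjusted p = 0.18) did not pass, nor did ORC5, the fourth of them.

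Hrp28 and Hmga were named by the same rule, and his2Av was the only listed histone with enough counts to be tested. Hrp28, an RNA-binding protein, had the smallest p-value of the named genes higher in MO204, with 79, 92.7 and 84.6 CPM in MO204 and 21.6, 11.8 and 19.2 CPM in DMMMSU119 (log2FC 2.28, SE 0.30, edgeR adjusted p = 0.00285). Hmga, an architectural protein that binds AT-rich DNA, had 34.9, 25.5 and 19.4 CPM in MO204 and 8.97, 3.20 and 3.32 CPM in DMMMSU119 (log2FC 2.39, SE 0.46, edgeR adjusted p = 0.011). The replication-independent histone his2Av had 397, 389 and 357 CPM in MO204 and 199, 147 and 179 CPM in DMMMSU119 (log2FC 1.12, SE 0.27, edgeR adjusted p = 0.0211). The groups did not overlap, which the rule required of Hrp28 and Hmga. Of 5 immunophilins, mostly peptidyl-prolyl isomerases, looked up after values were seen, 3 were higher and 2 did not pass, beside 16.3% higher over all genes. Fkbp12 had 447, 349.9 and 145 CPM in MO204 and 74.5, 20.7 and 38.7 CPM in DMMMSU119 (log2FC 2.82, SE 0.57, edgeR adjusted p = 0.0124), and the log2FC of Fkbp45 was 2.42 (edgeR adjusted p = 0.013). RnrS, Tyms, Rpa1, Pcna, Hrp28, Hmga, his2Av, Fkbp12 and Fkbp45 kept their calls with each library left out in turn. They also kept them with library size alone, but that scale raises log2FC throughout and does not test calls in this direction.

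**Figure D4:**
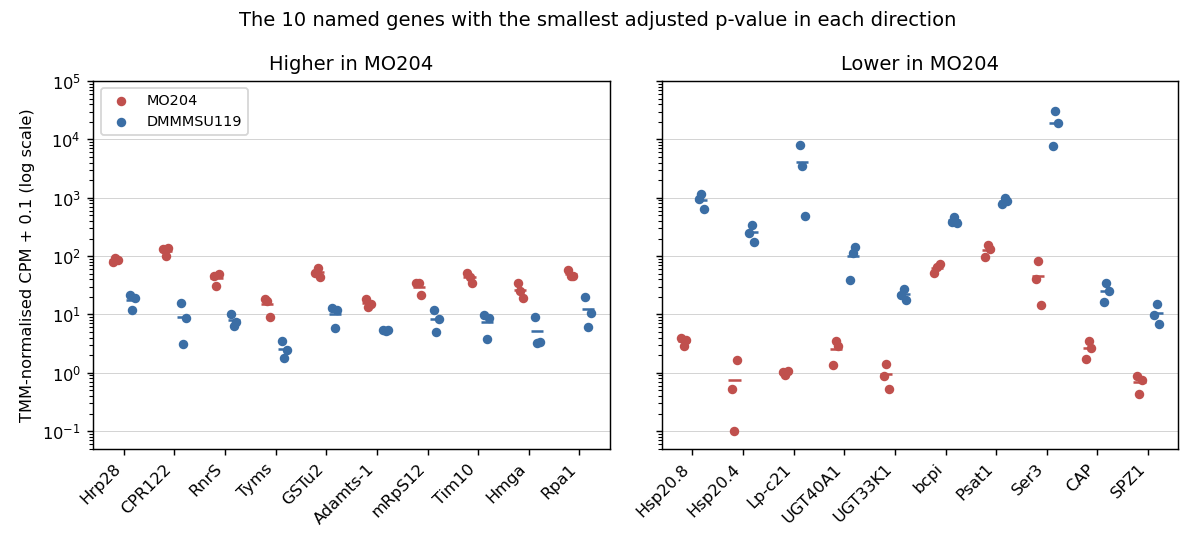
TMM-normalised CPM plus 0.1 (log axis) of the 10 genes with a name that had the smallest adjusted p-values among genes higher (left) and lower (right) in MO204, with a point for each library and a bar at the mean of MO204 (red) and DMMMSU119 (blue). The strains do not overlap at any of these genes, as the rule for choosing them required, and the differences are wider among the lower ones.

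The rest of the named genes higher in MO204 had varied roles. CPR122, a cuticular protein with a chitin-binding domain of the RR type, had 133, 99 and 136 CPM in MO204 and 15.7, 2.96 and 8.66 CPM in DMMMSU119 (log2FC 3.76, SE 0.52, edgeR adjusted p = 0.00327). GSTu2 (LOC101746194), a glutathione S-transferase, had 52.1, 62.3 and 44.2 CPM in MO204 and 12.9, 5.67 and 12 CPM in DMMMSU119 (log2FC 2.37, SE 0.39, edgeR adjusted p = 0.00614). Adamts-1, a secreted metalloprotease, had 18.4, 13.3 and 15.1 CPM in MO204 and 5.32, 5.17 and 5.35 CPM in DMMMSU119 (log2FC 1.56, SE 0.29, edgeR adjusted p = 0.00992). Among the genes higher in MO204, smaller p-values still were found at loci with no name in the files. LOC101744145 had 201, 195 and 183 CPM in MO204 and 17.9, 21.7 and 13.6 CPM in DMMMSU119 (log2FC 3.44, SE 0.38, edgeR adjusted p = 0.00144), with LOC101740127 (log2FC 3.66) and LOC101743834 (log2FC 2.57) after it. In LAT51 the means were 149, 8.68 and 0.434 CPM, and LOC101743834 was hardly counted there.

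Detoxification genes differed by family. UDP-glycosyltransferases, which attach sugars to small hydrophobic compounds such as plant toxins, were mostly lower, with 10 of 16 called lower, 0 higher and a median log2FC of -1.93. Over all genes 16.7% were lower and 16.3% higher. With library size alone 6 members were lower and 3 higher, with a median of -0.58. UGT40A1 had 1.28, 3.41 and 2.74 CPM in MO204 and 38.7, 114 and 144 CPM in DMMMSU119 (log2FC -5.35, SE 0.57, edgeR adjusted p = 0.00141). UGT33K1 had 0.783, 1.30 and 0.438 CPM in MO204 and 21, 27.6 and 17.9 CPM in DMMMSU119 (log2FC -4.74, SE 0.52, edgeR adjusted p = 0.00144). Both sets of libraries were clearly apart, also for UGT41A2 (log2FC -4.39) and UGT33D5 (log2FC -2.84), with edgeR adjusted p of 0.00498 and 0.00327. These 4 stayed lower DEGs with each library left out and with library size alone. Ugt2, by far the most abundant member, overlapped at 1721, 1902 and 1856 CPM in MO204 and 2047, 1155 and 1917 CPM in DMMMSU119 (edgeR adjusted p = 0.843). Of 19 members tested without DMMMSU-0 and DMMMSU-2, 6 were lower and 1 higher.

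Glutathione S-transferases lay near the shares over all genes (16.3% higher and 16.7% lower), with 3 higher and 3 lower of 14 and a median log2FC of 0.01. With library size alone 8 were higher and 0 lower. Single larvae moved the counts, to 1 higher and 1 lower without MO204-1, 1 and 3 without MO204-3, 3 and 6 without MO204-4 and 1 and 2 without DMMMSU-2. Besides GSTu2, GSTs2 was higher (log2FC 1.63, edgeR adjusted p = 0.0661), a call lost without MO204-1, MO204-3, DMMMSU-2 or DMMMSU-4 (adjusted p up to 0.189). GSTo2 was lower, with 5.55, 4.88 and 9.74 CPM in MO204 and 25.2, 32.3 and 19.91 CPM in DMMMSU119 (log2FC -1.93, SE 0.36, edgeR adjusted p = 0.00941). GSTd3 was lower by a log2FC of -1.71 (edgeR adjusted p = 0.0329, and 0.121 without MO204-1), and GSTo1, the most abundant, did not pass (log2FC -0.51, edgeR adjusted p = 0.187). Cytochrome P450 genes were thinly covered, with 1 of 9 tested members lower and 0 higher (median log2FC -0.54), under the shares over all genes. Their median was 0.89 with library size alone, where 4 were higher and 1 lower. Carboxylesterases had 3 of 8 lower and 0 higher (median log2FC -0.23), but 1 lower and 6 higher with library size alone (median 1.16), and 1 lower without MO204-1 or without MO204-3. Vesicle coat genes, all of COPI, had 2 of 7 higher and 1 lower, and 5 higher with library size alone. With any 1 library but DMMMSU-0 left out, 1 was higher.

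Serpins, the inhibitors of serine proteases in immunity and other cascades, had 5 of 13 members lower and 0 higher, with a median log2FC of -1.23. The shares over all genes were 16.7% lower and 16.3% higher. The widest difference was in serpin-15, at 1.99, 6.99 and 5.04 CPM in MO204 and 79.6, 574 and 420.1 CPM in DMMMSU119 (log2FC -6.27, SE 0.91, edgeR adjusted p = 0.00393). serpin-28 had 39.9, 25.5 and 59.3 CPM in MO204 and 351, 576 and 283 CPM in DMMMSU119 (log2FC -3.28, SE 0.63, edgeR adjusted p = 0.0106). serpin-5 was lower by a log2FC of -2.16 (edgeR adjusted p = 0.0116) and serpin-2 by -1.23 (edgeR adjusted p = 0.076), the last losing its call without any of 4 libraries, MO204-1, MO204-3, MO204-4 and DMMMSU-0 (adjusted p up to 0.261). serpin-18, the most abundant, overlapped at 2413, 333 and 5074 CPM in MO204 and 9248, 6026 and 3179.6 CPM in DMMMSU119. With library size alone the list's median was 0.15, and 3 members were lower without DMMMSU-0 or without MO204-1 and 8 without MO204-4.

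Innate immunity genes had 6 of 13 members lower, 0 higher and a median log2FC of -1.56, beside 16.7% lower and 16.3% higher over all genes. With library size alone 3 members were lower and 3 higher, with a median of -0.23. SPZ1, a Spätzle ligand of the Toll pathway, had 0.783, 0.325 and 0.657 CPM in MO204 and 9.53, 15 and 6.82 CPM in DMMMSU119 (log2FC -4.05, SE 0.53, edgeR adjusted p = 0.00283). The antibacterial peptide Defensin had 12.7, 20.7 and 15.9 CPM in MO204 and 54.4, 55.7 and 44.6 CPM in DMMMSU119 (log2FC -1.65, SE 0.33, edgeR adjusted p = 0.0124). Both were apart in every library. glv3, of the antibacterial gloverins, had only 3, 1 and 3 counts in MO204 and 134, 18 and 16 counts in DMMMSU119, most of them in DMMMSU-0 (edgeR adjusted p = 0.0132). The pooled scaled counts were 54.1-fold lower in MO204 (95% exact interval 25.7 to 137, for counting error only). PPAE, the protease that activates prophenoloxidase, was at 0.285, 0.976 and 1.09 CPM in MO204 and 17.9, 14.8 and 0.369 CPM in DMMMSU119 (log2FC -3.84, edgeR adjusted p = 0.0369, up to 0.131 without MO204-1 or DMMMSU-2). In DMMMSU-4, the DMMMSU119 library with the lowest fat body marker sum, PPAE lay within the MO204 range. Without DMMMSU-0 and DMMMSU-2, 1 member of the list was lower and its median was 0.55.

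The fat body markers themselves were the list with the lowest median. Of 11 genes, 8 were lower in MO204, 0 higher, with a median log2FC of -5.08, beside 16.7% lower and 16.3% higher over all genes. With library size alone 7 markers were lower and 1 higher. Lp-c21, of the 30K lipoproteins of larval blood, had 0.926, 0.813 and 0.985 CPM in MO204 and 8100.0, 3465 and 491 CPM in DMMMSU119 (log2FC -12.08, SE 1.21, edgeR adjusted p = 0.00134). Lp-c12 had 17.3, 24.7 and 91.1 CPM in MO204 and 10674, 3281 and 539 CPM in DMMMSU119 (log2FC -6.77, SE 1.27, edgeR adjusted p = 0.01), and Lp-c19 and Lp-c6 had log2FC -7.51 and -6.89 (edgeR adjusted p = 0.0169 and 0.0202). All 3 DMMMSU119 larvae were above all MO204 larvae for these lipoproteins, in the order DMMMSU-0, DMMMSU-2, DMMMSU-4. The storage protein Sp1 was at 1.14, 153 and 1.20 CPM in MO204 and 20028, 6030.0 and 9.58 CPM in DMMMSU119, with DMMMSU-4 below MO204-3. Vitellogenin (VG), the yolk protein, was hardly counted, at 4.84, 7.81 and 0 CPM in MO204 and 0.560, 2.46 and 0 CPM in DMMMSU119 (edgeR adjusted p = 0.273), and was named after its values were seen. Without DMMMSU-0 and DMMMSU-2, 2 markers were called lower, 4 without MO204-1 and 5 without DMMMSU-0 or without MO204-3. Whether the lower serpin, immunity and hormone genes come from tissue beside the gland was not tested. Muscle markers had no member called, with A1 at 16.9, 397 and 15.9 CPM in MO204 and 7723, 12.1 and 6.45 CPM in DMMMSU119, and log2FC of -4.08 for TpnI, -3.52 for MLC-2 and -2.75 for Fln (edgeR adjusted p = 0.207, 0.193, 0.239 and 0.206). The log2FC of all 4 changed sign without DMMMSU-0, where A1 and MLC-2 were called higher in MO204 (adjusted p = 0.0902 and 0.0964).

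Of 6 ecdysone response genes, 4 were lower and 1 higher, with a median log2FC of -1.23, beside 16.7% lower and 16.3% higher over all genes. E74, an early gene induced by ecdysone, had 5.27, 8.62 and 6.57 CPM in MO204 and 12.3, 53 and 37.2 CPM in DMMMSU119 (log2FC -2.34, SE 0.47, edgeR adjusted p = 0.0122). E75, a nuclear receptor of the same early class, had 8.54, 15.1 and 14.7 CPM in MO204 and 30.8, 42.9 and 28.8 CPM in DMMMSU119 (log2FC -1.42, SE 0.32, edgeR adjusted p = 0.0178). In both, every DMMMSU119 larva was above every MO204 larva, as also for the receptor subunits USP (log2FC -1.20, edgeR adjusted p = 0.0335) and EcR (log2FC -1.27, edgeR adjusted p = 0.0409). Br-c, the Broad complex of pupal commitment, named after its values were seen, was higher in MO204, at 15.1, 9.59 and 15.2 CPM, against 8.69, 0.985 and 5.16 CPM in DMMMSU119 (log2FC 1.44, edgeR adjusted p = 0.0943). USP and EcR lost their calls without MO204-1, DMMMSU-2 or DMMMSU-4 (adjusted p up to 0.125 and 0.15), and Br-c without any of 5 libraries, all but DMMMSU-0 (up to 0.219). With library size alone the median was 0.19, and USP and EcR turned positive.

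Of 10 juvenile hormone genes, 4 were lower and 1 higher, with a median log2FC of -0.72 (0.65 with library size alone). The shares over all genes were 16.7% lower and 16.3% higher. Kr-h1, the transcription factor that juvenile hormone induces to hold off metamorphosis, was the higher one, with 3.56, 1.63 and 2.19 CPM in MO204 and 0.560, 0 and 0.184 CPM in DMMMSU119 (log2FC 3.34, SE 0.81, edgeR adjusted p = 0.0219). Its counts were small, 50, 10 and 20 in the MO204 libraries and 2, 0 and 1 in the DMMMSU119 libraries, and the pooled scaled counts were 11.8-fold higher in MO204 (95% exact interval 3.90 to 58.5, for counting error only). Jheh-lp2, an epoxide hydrolase of the type that breaks down the hormone, had 15.7, 18 and 35 CPM in MO204 and 249.7, 165 and 129 CPM in DMMMSU119 (log2FC -2.98, SE 0.62, edgeR adjusted p = 0.0133). The hormone esterase jhe1 had 1.28, 1.63 and 2.96 CPM in MO204 and 22.4, 7.64 and 4.06 CPM in DMMMSU119 (log2FC -2.52, edgeR adjusted p = 0.0369). The diol kinase Jhdk had 0.142, 1.46 and 1.09 CPM in MO204 and 49, 11.8 and 0.369 CPM in DMMMSU119 (log2FC -4.58, edgeR adjusted p = 0.0452). In Jheh-lp2, jhe1 and Jhdk alike the DMMMSU119 libraries followed the order of the fat body markers. The calls of jhe1 and Jhdk were lost without DMMMSU-0, MO204-1 or MO204-3 (adjusted p up to 0.133 and 0.153). Without DMMMSU-0 and DMMMSU-2, 0 genes of the list were lower, and 1 was without MO204-1 and 2 without MO204-3. Kr-h1 and Jheh-lp2 kept their calls with each library left out in turn.

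Cuticular proteins, the structural proteins of the insect exoskeleton, also line the duct of the gland. CPH43 was among the 10 most counted genes, with 1249, 969 and 3728 CPM in MO204 and 40239, 43539 and 30998 CPM in DMMMSU119 (log2FC -4.27, SE 0.56, edgeR adjusted p = 0.00283). LOC101737792, a non-coding locus that overlaps it in the RefSeq annotation, and LOC119628831 had counts within 5% of those of CPH43 in every library, so that these loci cannot be told apart and stand for 1 signal. CPH19 had 0.783, 0.976 and 0.438 CPM in MO204 and 7.57, 9.36 and 26.7 CPM in DMMMSU119 (log2FC -4.31, edgeR adjusted p = 0.0101). CPH18 had 0.641, 0.325 and 0.438 CPM in MO204 and 5.89, 4.68 and 47.6 CPM in DMMMSU119 (log2FC -5.28, edgeR adjusted p = 0.0155), and CPG16 had 0.712, 0.976 and 5.14 CPM in MO204 and 58.6, 51.5 and 2.40 CPM in DMMMSU119 (log2FC -4.03, edgeR adjusted p = 0.0327), with the strains overlapping. Of 14 such genes outside the RR family, 6 were lower, 0 higher, with a median log2FC of -3.20. Over all genes 16.7% were lower and 16.3% higher. Without DMMMSU-0 the median of the list was -0.33, with 4 lower and 1 higher. With library size alone and all libraries, 4 were lower and 2 higher.

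In the RR family, named for a chitin-binding motif, 2 were higher and 4 lower of 20 tested, out of 135 in the table, near the 16.3% and 16.7% of all genes. With library size alone 6 were higher and 1 lower. CPR90, the most abundant, had 512, 389.9 and 168 CPM in MO204 and 2769.9, 1013 and 4646 CPM in DMMMSU119 (log2FC -2.98, SE 1.07, edgeR adjusted p = 0.0728). CPR28 (log2FC -5.46) and CPR42 (log2FC -2.27) were highest in DMMMSU-0, and DMMMSU-4 lay within the MO204 range (edgeR adjusted p = 0.0359 and 0.07). Members called lower numbered 1 without DMMMSU-0, 2 without MO204-1 and 7 without DMMMSU-4. CPR90 lost its call without any of 4 libraries, MO204-1, MO204-3, MO204-4 and DMMMSU-4 (adjusted p up to 0.175). Of the RR genes named here, only CPR122 kept its call with each library left out. Odorant-binding and chemosensory proteins, small carriers of hydrophobic molecules, had 4 of 7 lower and 0 higher, with a median log2FC of -3.12. Without DMMMSU-0 the median was -1.19, with 2 lower and 1 higher. With library size alone and all libraries, 2 were lower and 1 higher. Obp6 had 3.77, 0.163 and 2.08 CPM in MO204 and 52.4, 32.8 and 322 CPM in DMMMSU119 (log2FC -5.99, SE 1.24, edgeR adjusted p = 0.0132), and LOC692619 (CSP9) had a log2FC of -3.12 (edgeR adjusted p = 0.0158). CSP4 and CSP7 were highest in DMMMSU-0 and DMMMSU-4 lay within the MO204 range (log2FC -3.97 and -3.39, edgeR adjusted p = 0.0589 and 0.0635, up to 0.515 and 0.211 without a single library). CAP, one of the named genes with the smallest p-values, was lower at 1.64, 3.41 and 2.52 CPM in MO204 and 16, 34.5 and 25.4 CPM in DMMMSU119 (log2FC -3.35, SE 0.41, edgeR adjusted p = 0.00264). LOC101745023, unnamed in the files, was lower at 5.84, 4.72 and 7.77 CPM in MO204, against 779, 633 and 573 CPM in DMMMSU119 (log2FC -6.75, SE 0.54, edgeR adjusted p = 0.00055).

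Some genes were counted in 1 strain only, with at most 3 counts in each library of the other strain and at least 20 in each of its own. There were 4 in MO204 and 14 in DMMMSU119. Folds against a strain with few counts are ratios of the pooled, scaled counts with a 95% exact interval that covers counting error only, and a fold against a strain with no counts is a lower bound at 3 counts per library. LOC101738036, which the study annotates as the serine protease inhibitor swm-1, had 146, 111 and 636 counts in MO204 and 1, 0 and 0 in DMMMSU119, a 396-fold difference (70.9 to 15653). LOC101744567 had 114, 82 and 49 counts in MO204 and 0, 0 and 0 in DMMMSU119, and was at least 12.5-fold higher in MO204. LOC101742525 (10.01-fold, 4.74 to 25.3) and LOC101745952 (5.87-fold, 2.87 to 14) were also higher in MO204. In the opposite direction, LOC101741526 had 1, 0 and 0 counts in MO204 and 808, 1036 and 206 in DMMMSU119, and its ratio was 4624 in favour of DMMMSU119 (829 to 182744). LOC110385715 had 3, 1 and 1 counts in MO204 and 132, 897 and 433 in DMMMSU119 (659.6-fold lower in MO204, 282 to 2034). LOC119629954, annotated in the study as like the zinc finger BED domain-containing protein 4, had 2, 1 and 0 counts in MO204 and 87, 495 and 164 in DMMMSU119, and the LAT51 libraries had 126, 127 and 198. That gene was thus hardly counted in MO204 alone among the 3 strains. LOC101744852 was 492-fold lower in MO204 (135 to 4074), and LOC101742830, with no count in MO204, at least 63.9-fold lower. At this depth these transcripts were not detectable or barely so, which does not show them to be absent. Leaving out a library only loosens the limits, so the number of such genes could not fall. It was up to 27 in MO204 without MO204-3 and 40 in DMMMSU119 without DMMMSU-4.

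Loci that the study names in its comparison of the sites were looked up between the strains as well, chosen after their values were seen. LOC101740965, annotated as a myrosinase, a defence enzyme that splits glucosinolates, had 108, 107 and 203 CPM in MO204 and 57.4, 49 and 29.5 CPM in DMMMSU119 (log2FC 1.62, SE 0.39, edgeR adjusted p = 0.0267). The second myrosinase locus, LOC101741105, had 19.4, 17.1 and 33.1 CPM in MO204 and 5.89, 5.91 and 3.87 CPM in DMMMSU119 (log2FC 2.16, SE 0.38, edgeR adjusted p = 0.0118). Both loci were higher in MO204 and were counted in all 6 larvae, while LAT51 had no counts of either. Strain and site cannot be told apart in LAT51. LOC101739591, annotated as the heat-activated ion channel pyrexia, had 26.4, 21.1 and 25.4 CPM in MO204 and 9.81, 12.1 and 10.3 CPM in DMMMSU119 (log2FC 1.18, SE 0.34, edgeR adjusted p = 0.0379, and 0.123 without MO204-1). LOC105842960, annotated as a choline dehydrogenase-like gene, had 47.2, 50.9 and 104 CPM in MO204 and 25.2, 19.96 and 12 CPM in DMMMSU119 (log2FC 1.83, SE 0.39, edgeR adjusted p = 0.0138). Of the 10 most counted genes, LOC119630857, LOC110386648 and LOC119630858, did not pass (edgeR adjusted p = 0.373, 0.385 and 0.291), and the counts of LOC119630857 and LOC110386648 were within 5% of each other in every library. Of the 133 genes with values here that the RefSeq table holds, 44 overlap another gene, and reads of overlapping genes may not be told apart since the strand setting of the counting was not given in the sources used here.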

How the data were processed

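Whole silk glands were sequenced as strand-specific mRNA libraries (TruSeq Stranded, NextSeq 500). By the submitters' processing notes, trimming used fastp 0.20.0 as well as Trimmomatic 0.39, alignment HISAT2 2.1.0 and counting per gene featureCounts 1.4.6-p5. The authors deposited raw counts per gene, which were used here. They also deposited log2 values, which are log2(count/size factor + 1) from DESeq2 1.30.1 and served only as an alternative. The strain ITA was not used here.

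Counts were scaled with TMM, filtered with filterByExpr by strain and tested with edgeR 4.0.16 (R 4.3.3) by quasi-likelihood, with 1 mean for each of 3 strains over 9 libraries. The contrast was MO204 minus DMMMSU119, Benjamini-Hochberg adjusted over 7610 of 16674 genes and called under 0.1. Standard errors are those of the log2 fold change. Shares of counts were compared by two-sided exact permutation tests. The edgeR and DESeq2 fits were tested on simulated counts with as many changes up as down. Such data do not test the scaling where libraries differ in make-up.

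Genes were matched to lists by symbol and by the RefSeq gene table (14504 of 16674 IDs). Named genes are, in each direction, the 10 named genes of smallest adjusted p among those over 2-fold that do not overlap, and the 3 smallest of any annotation. The 10 most counted genes, 4 genes and the most abundant gene of each list described, and 5 genes per direction counted in 1 strain only were added, apart from genes said to be chosen after their values were seen. For some lists only counts are given. Members and lists were chosen with earlier results of these data known. Alternatives were DESeq2 1.42.0, limma 3.58.1 on the deposited log2 values, other scalings, filters and thresholds, only the 6 libraries, and leaving out libraries. Depth was 4625580 to 9646046 counts per library.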

Additional observations from a re-analysis of the deposited data

How the results depend on the processing

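Against 2513 DEGs (1240 higher and 1273 lower in MO204), scaling by library size alone gave 5559 (5181 and 378), a threshold of 0.05 gave 1653 (749 higher), and leaving out 1 library gave 1257 to 2823, with 553 to 1482 higher and 704 to 1341 lower. Without DMMMSU-0 and DMMMSU-2, a fit chosen after seeing the data in which the spread of the lone DMMMSU119 library is taken from the other strains, 1046 genes were called (507 and 539). DESeq2 called 2707, of which 2293 were shared in the same direction. With only the 6 libraries 2144 were called, 969 higher and 1175 lower. Genes counted in 1 strain only numbered 2 and 9 (MO204 and DMMMSU119) with at most 1 count in the other strain and 1 and 9 with at least 50 counts in their own. They numbered 5 to 27 and 15 to 40 with a library left out, which can only add genes. The cause of these differences was not tested.

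With library size alone, median log2FC turned positive for ecdysone genes (0.19), serpins (0.15), translation factors (0.62), juvenile hormone genes (0.65), gland transcription factors (0.49), cytochrome P450 genes (0.89) and carboxylesterases (1.16). So did the log2FC of sage (0.49), SGF1 (0.49), Hsp19.9 (0.12), Hsp20.1 (0.45), Hsp21.4 (0.92), Eif-4a (0.14), eIF3i (0.24), LOC692936 (0.24), GSTo1 (0.89), serpin-2 (0.11), serpin-18 (0.15), USP (0.23), EcR (0.15) and DnaJ-5 (0.55). Without DMMMSU-0 and DMMMSU-2 the signs changed for innate immunity genes (0.55), juvenile hormone genes (0.16), RR cuticular proteins (0.34), Ugt2 (-0.040), PPAE (1.07), Jhdk (1.25), Sp1 (2.46), A1 (4.50), TpnI (3.57) and MLC-2 (4.29). Without DMMMSU-0 and MO204-3, also chosen after seeing the data, they changed for A1 (0.85), TpnI (0.44) and MLC-2 (0.49). With 1 library left out, values ranged over both signs for RR cuticular proteins (-2.33 to 0.43), A1 (-7.28 to 3.98), TpnI (-7.00 to 3.38), MLC-2 (-6.69 to 3.70) and Fln (-3.81 to 0.25), each positive only without DMMMSU-0, and for Ugt2 (-0.10 to 0.27), negative only without DMMMSU-2. Of 141 genes named with values, 118 were called, and 84 of these kept the call with each library left out in turn.

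No paired analysis was possible because the strains share only 1 replicate number. A total without mitochondrially encoded genes was not run, since no gene of that kind was found in the table used. Genes near 3 counts per library and genes under the filter are limited by depth.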
